A study of Mus musculus with 6 samples.

Results

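The genes described here are 9 of the 53800 genes of the deposited count table, found by their symbols: the Fc gamma receptor genes Fcgr1, Fcgr2b, Fcgr3 and Fcgr4, the adaptor genes Fcer1g and Tyrobp, the receptor genes Trem2 and Clec7a, and the kinase gene Syk. Their transcripts were measured by RNA sequencing in the mouse liver line NCTC 1469, which carries the labels hepatocytes and WT. Normal gravity cultures gave 3 libraries, and 3 more came from cultures on a random positioning machine, a device whose constant reorientation averages out the pull on the cells, called simulated microgravity here. Both groups spent 6 days in their condition in DMEM with serum. The series' title names melatonin, but no library used here has it in its labels. Whether replicates were separate cultures is not stated, so a p-value measures only how these samples spread, possibly for technical reasons. Column names hold C or R, taken here for control and random positioning machine, and every direction rests on that reading.

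Fc receptors bind the constant part of antibodies. The activating receptors have little signalling tail of their own and pair with an adaptor, and the adaptors FcR gamma (Fcer1g) and DAP12 (Tyrobp) carry an ITAM, a short stretch with paired tyrosines that Src family kinases phosphorylate and to which the kinase SYK then binds. TREM2, a receptor for lipids and lipoproteins, signals through DAP12, whereas dectin-1 (Clec7a), a receptor for fungal beta-glucan, has a tyrosine motif of its own that recruits SYK. FcγRIIb (Fcgr2b) instead carries an inhibitory motif that recruits the phosphatase SHIP. In liver these genes are known from Kupffer cells and other phagocytes rather than from hepatocytes.

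The libraries held 30474792 to 34318208 counts. All 9 genes had at least 613 counts in every library and passed the filter on low counts. The label hepatocytes went against the markers. Of 10 hepatocyte markers, Alb, Serpina1a, Hnf4a, Cyp2e1, Tat, Cps1 and Fgb had 0 counts in all 6 libraries, Apoa1 and Ttr stayed under 1 CPM (counts scaled to library depth), and only Ass1 was above that level. Of 12 macrophage markers 11 reached 1 CPM in at least 1 library, among them Csf1r at 2153 to 2552 CPM, Lyz2 at 944 to 4673 CPM and Cd68 at 658 to 1036 CPM, while Mrc1 did not reach it. C1qa and C1qb reached it only in normal gravity replicate 1, at 1.00 and 1.22 CPM, and Cx3cr1 stood at 0.88 to 3.61 CPM. The summed level of the macrophage markers ranged from 5872 to 9799 CPM in the first group and from 9393 to 10796 CPM in the second. Of the 9 tested ones edgeR and limma-voom called none and DESeq2 called 1 higher, and the unadjusted edgeR p was under 0.05 for 2. Over all tested genes limma-voom called 1.28% higher and 0.338% lower, DESeq2 4.92% and 3.56%, and the unadjusted edgeR p was under 0.05 for 8.55% and 7.48%. The defining genes of mast cells and basophils (Ms4a2, Fcer1a, Mcpt8, Tpsb2) and of natural killer cells (Ncr1, Klrb1c, Gzmb, Prf1) were at 0. Of 6 T cell markers Cd3d, Cd3e, Cd3g, Cd4 and Cd8a were at 0, whereas Lck stood at 7.65 to 15.7 CPM. In such bulk samples, fewer cells of a type and less RNA per cell cannot be told apart.

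Normal gravity replicate 1 stood apart from the other libraries. Its log2 level minus the mean of normal gravity replicates 2 and 3 had a median of 0.63 over 1978 genes of up to 1000 bases and of -0.70 over 2582 genes longer than 5000 bases. It was higher than both other normal gravity libraries for 8 of the 9 genes and lower for Syk, so each of the 9 genes is compared with and without it.

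**Figure D1:**
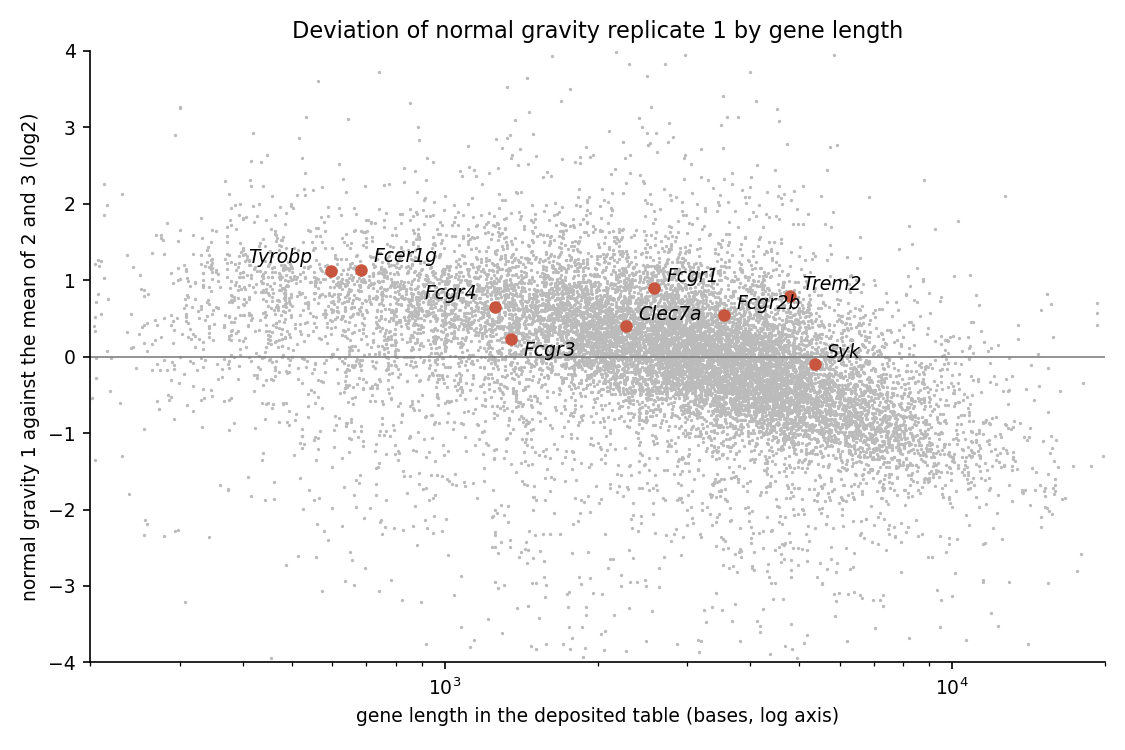
Log2 level in normal gravity replicate 1 against the mean of replicates 2 and 3 (vertical axis) by gene length (horizontal log axis), with each grey point a tested gene and the 9 genes in red. Short genes lie above 0 and long genes below, the 9 genes lie between -0.10 (Syk) and 1.13 (Fcer1g), and Trem2 and Fcgr1 lie above the bulk of genes of their length.

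Syk, the kinase on which the activating receptors converge, had nearly double the level in simulated microgravity. It stood at 164, 175 and 177 CPM in normal gravity replicates 1 to 3 and at 332, 318 and 333 CPM in simulated microgravity. The groups lay far apart, and replicate 1 lay close to the other normal gravity libraries. The means were 172 ± 7.01 CPM (SD, n = 3) and 328 ± 8.61 CPM (SD, n = 3), and Syk rose by 0.93 log2 units (SE 0.09, adjusted p = 0.0127), or 1.90-fold. It was the only 1 of the 9 genes to pass, where 1.16% of 14509 tested genes passed upward and 0.365% downward. Without normal gravity replicate 1 the value was 0.90 (SE 0.04, adjusted p = 0.000134). Leaving out any other library ended the call, with 0.92 to 0.95 log2 units and adjusted p-values of 0.0792 and 0.0772 without normal gravity replicates 2 and 3 and of 0.129, 0.105 and 0.129 without simulated microgravity replicates 1, 2 and 3. In those fits none of the genes in the 6 lists described below passed either, and shares over all genes are not given here. Syk lies on chromosome 13 from 52583173 to 52648792 on the plus strand in the mouse assembly GRCm38, and no other gene of the table overlaps it.

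Fcgr3 and Fcgr4, which encode the activating receptors FcγRIII and FcγRIV for immune complexes, were higher in every simulated microgravity library than in any normal gravity library but did not pass with 6 libraries. Fcgr3 stood at 78.4, 74.2 and 60.1 CPM at normal gravity and at 110.1, 113 and 108 CPM in simulated microgravity. The groups did not overlap, and the difference was 0.64 log2 units (SE 0.13, adjusted p = 0.0805) and 0.72 (SE 0.10, adjusted p = 0.00358) without normal gravity replicate 1. Fcgr4 stood at 77.9, 49.2 and 50.4 CPM at normal gravity and at 94.7, 91.8 and 101 CPM in simulated microgravity. Its replicate 1 was the highest normal gravity library and still below all 3 of simulated microgravity. For Fcgr4 the difference was 0.70 log2 units (SE 0.20, adjusted p = 0.164), and 0.95 (SE 0.06, adjusted p = 0.000373) without that replicate. Both genes also passed in DESeq2, at adjusted p = 0.000643 for Fcgr3 and 0.0279 for Fcgr4, and after removal of each library's gene length trend, at adjusted p = 0.0286 for Fcgr3 and 0.00724 for Fcgr4. Syk, Fcgr3 and Fcgr4 were the 3 of the 9 genes higher in DESeq2, which called 4.92% of all genes higher and 3.56% lower, and the 3 higher with the length trend removed, where 3.03% of all genes were higher and 1.77% lower.

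RefSeq start regions of Syk, Fcgr3 and Fcgr4 are shown because these genes were higher in all 3 simulated microgravity libraries. Each window holds 250 bases before and 50 after an annotated start in GRCm38.p6, written 5′ to 3′ along the gene, and capitals mark GAGGAA or its reverse complement, the core of sites bound by the myeloid factor PU.1. The windows of Syk, which has a pair of annotated starts, span chr13:52583187-52583486 and chr13:52596632-52596931. The window of 1 of the annotated starts of Fcgr3 spans chr1:171059354-171059653 on the minus strand, and that of Fcgr4 spans chr1:171018676-171018975.
Syk, upstream start: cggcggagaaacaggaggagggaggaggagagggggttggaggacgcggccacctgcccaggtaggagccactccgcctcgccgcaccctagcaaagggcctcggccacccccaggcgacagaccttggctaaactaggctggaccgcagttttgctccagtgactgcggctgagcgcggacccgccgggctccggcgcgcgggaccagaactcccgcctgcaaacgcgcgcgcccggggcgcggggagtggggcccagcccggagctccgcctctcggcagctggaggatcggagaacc
Syk, downstream start: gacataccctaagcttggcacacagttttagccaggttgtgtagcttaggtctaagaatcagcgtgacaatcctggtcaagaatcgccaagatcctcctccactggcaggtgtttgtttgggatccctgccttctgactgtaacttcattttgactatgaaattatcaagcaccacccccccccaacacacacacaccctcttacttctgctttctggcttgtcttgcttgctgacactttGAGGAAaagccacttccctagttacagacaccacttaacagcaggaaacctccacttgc
Fcgr3: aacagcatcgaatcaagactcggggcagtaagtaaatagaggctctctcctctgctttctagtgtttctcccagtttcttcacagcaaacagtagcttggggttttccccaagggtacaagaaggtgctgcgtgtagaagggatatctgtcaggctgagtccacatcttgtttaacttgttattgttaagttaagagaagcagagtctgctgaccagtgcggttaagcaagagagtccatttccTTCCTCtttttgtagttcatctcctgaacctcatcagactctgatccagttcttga
Fcgr4: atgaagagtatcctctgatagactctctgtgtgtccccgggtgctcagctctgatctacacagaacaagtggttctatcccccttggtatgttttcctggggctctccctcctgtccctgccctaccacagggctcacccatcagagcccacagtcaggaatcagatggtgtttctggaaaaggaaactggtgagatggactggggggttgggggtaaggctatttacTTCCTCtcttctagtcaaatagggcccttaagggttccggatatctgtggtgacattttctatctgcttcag

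The core GAGGAA, searched on both strands, was found in 8 of the 11 windows, against 28.3% of 32841 windows of all genes, and the paired windows of Fcgr3 and of Clec7a overlap. The 8 windows belong to 6 of the 8 genes with an entry, which are Fcgr1, Fcgr3, Fcgr4, Trem2, Syk at its downstream start, and Clec7a. Counted from the start site, its first base lay at -6 in Fcgr3, at -22 in Fcgr4, at -9 in Syk, at -55 in Fcgr1, at -40 in Trem2 and at -96 in Clec7a. The longer GAGGAAGT, which contains the core, occurred in Fcgr4 alone among them (3.20% of all windows). TGACTCA, bound by AP-1 factors (5.20%), and TCACGTGA, bound by MITF and TFE factors (0.974%), were in none of the 11 windows. Fcgr2b and Fcer1g had no core in their windows.

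Fcgr1, which encodes the high-affinity receptor for single antibodies, showed no such separation. It stood at 128, 67.6 and 70.2 CPM at normal gravity and at 75.7, 84.5 and 81.0 CPM in simulated microgravity. The simulated microgravity libraries lay above normal gravity replicates 2 and 3 and below replicate 1. With all libraries the difference was -0.14 log2 units (SE 0.26, adjusted p = 0.854), against 0.23 (SE 0.07, adjusted p = 0.0450) without replicate 1, so 1 library decided its sign.

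Fcgr2b, the inhibitory receptor gene, did not pass with or without that library. It stood at 302, 217 and 197 CPM at normal gravity and at 251, 207 and 232 CPM in simulated microgravity. The groups overlapped, and Fcgr2b differed by -0.05 log2 units (SE 0.18, adjusted p = 0.933), or by 0.16 (SE 0.09, adjusted p = 0.241) without replicate 1. Fcgr2b and Fcgr3 are close relatives in sequence: 166 of 1733 different windows of 50 bases in the GENCODE M21 transcripts of Fcgr3 (9.58%) also occur in those of Fcgr2b, where they make up 2.92%, and the longest run of shared windows spans 129 bases. Reads from there could have been divided between both genes. The predicted gene Gm38204 overlaps Fcgr2b on the other strand, with 51 counts in all 6 libraries together. On chromosome 1, Fcgr2b lies from 170958617 to 170976547 on the minus strand, Fcgr4 from 171018920 to 171029761 on the plus strand, Fcgr3 from 171051174 to 171064935 on the minus strand and Fcer1g from 171229572 to 171234365 on the minus strand, whereas Fcgr1 lies on chromosome 3 from 96282909 to 96293969 on the minus strand.

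Adaptor transcripts showed the largest gaps between normal gravity replicate 1 and the other libraries of its group. Fcer1g, the adaptor of the activating Fc receptors, stood at 436, 197 and 200.01 CPM at normal gravity and at 209.5, 210.2 and 226 CPM in simulated microgravity. Replicate 1 was more than double the other libraries of its group, and the rest lay close together. Fcer1g differed by -0.37 log2 units (SE 0.32, adjusted p = 0.653), and 0.12 (SE 0.05, adjusted p = 0.117) without that library.

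Tyrobp, the adaptor of TREM2, stood at 451, 204 and 211 CPM at normal gravity and at 305, 291 and 298 CPM in simulated microgravity. The simulated microgravity libraries lay close together, above normal gravity replicates 2 and 3 and below replicate 1. Tyrobp differed by 0.04 log2 units (SE 0.32, adjusted p = 0.969), and 0.52 (SE 0.04, adjusted p = 0.000686) without that replicate. Fcer1g and Tyrobp are the shortest of the 9 genes, at 683 and 597 bases in the table, and replicate 1 exceeded replicates 2 and 3 by 1.13 and 1.12 log2 units for them, where the trend of all genes at their lengths was 0.60 and 0.62. With each library's length trend removed, the difference between the groups was -0.12 log2 units for Fcer1g (adjusted p = 0.722) and 0.30 for Tyrobp (adjusted p = 0.331). Tyrobp lies on chromosome 7 from 30413760 to 30417585 on the plus strand.

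Trem2 stood at 280.5, 161 and 163 CPM at normal gravity and at 179, 189.6 and 203 CPM in simulated microgravity. As for Tyrobp, replicate 1 of normal gravity was the highest of the 6 libraries and replicates 2 and 3 were the lowest. Trem2 differed by -0.08 log2 units (SE 0.24, adjusted p = 0.918), and 0.24 (SE 0.06, adjusted p = 0.0292) without replicate 1. Replicate 1 exceeded the others of its group by 0.79 log2 units, although the trend of all genes at the table's length for Trem2 was -0.34. That length, 4784 bases, covers all annotated exons, whereas the longest principal transcript has 1088 bases. Trem2 lies on chromosome 17 from 48346401 to 48354147 on the plus strand.

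Clec7a had the lowest mean CPM of the 9 genes and was the 1 whose simulated microgravity libraries were all below normal gravity. It stood at 30.5, 23.9 and 22.4 CPM at normal gravity and at 19.1, 20.3 and 21.005 CPM in simulated microgravity. The gap between the groups was small beside the spread at normal gravity. Clec7a differed by -0.35 log2 units (SE 0.15, adjusted p = 0.336), and -0.20 (SE 0.08, adjusted p = 0.121) without replicate 1. The table and GENCODE M21 class Clec7a as a polymorphic pseudogene, a gene that is intact in some strains and broken in others, and place it on chromosome 6 from 129461591 to 129472779 on the minus strand.

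**Figure D2:**
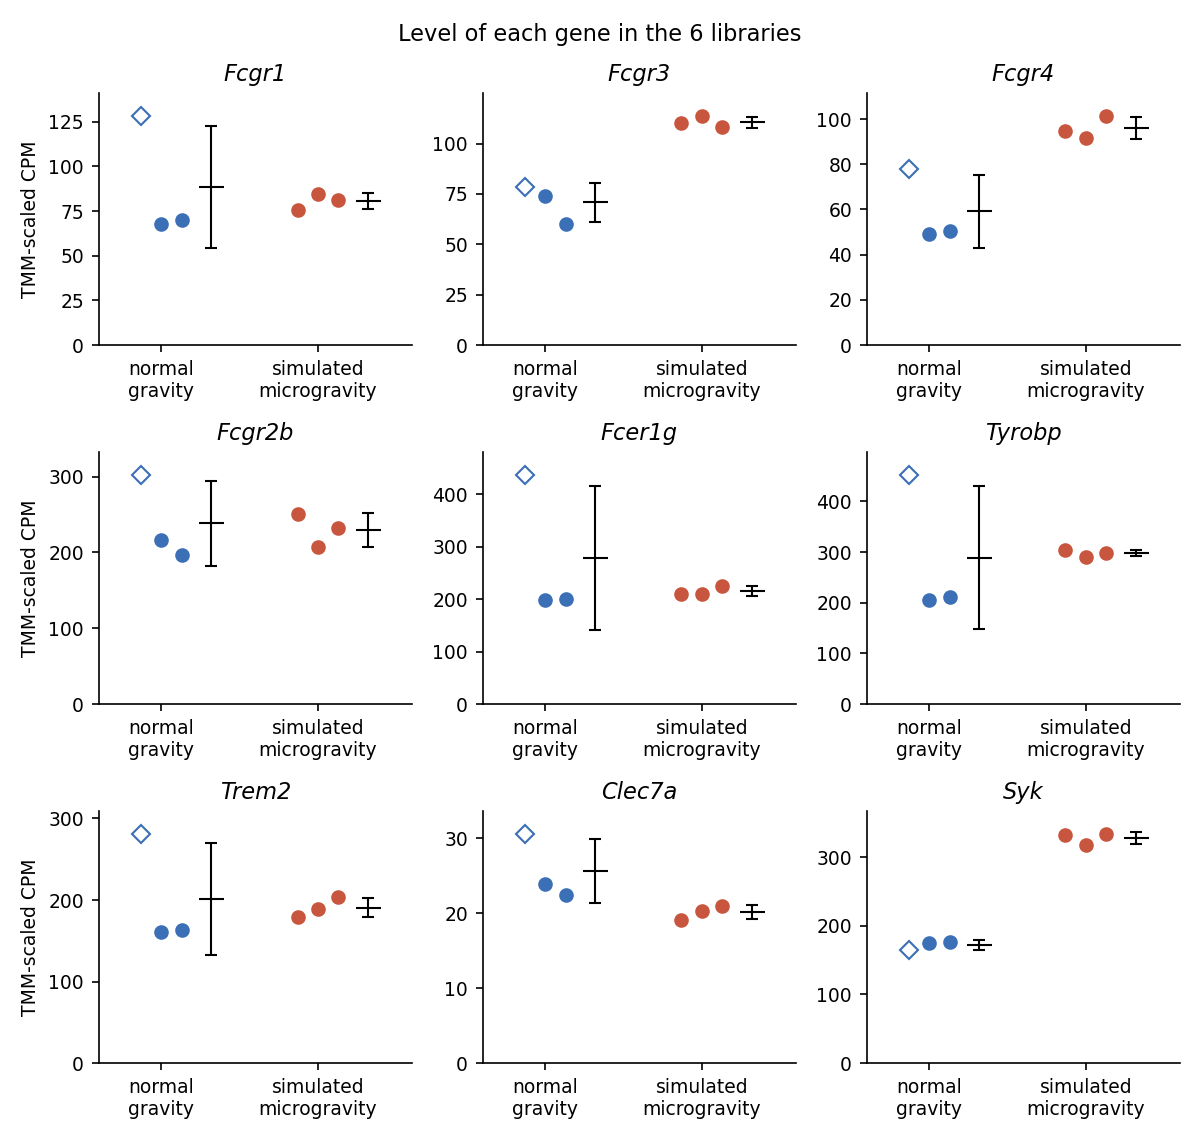
TMM-scaled CPM of each gene in the 3 normal gravity libraries (blue, open diamond for replicate 1) and the 3 simulated microgravity libraries (red), with the mean and SD in black. Syk, Fcgr3 and Fcgr4 are higher in all 3 simulated microgravity libraries, and replicate 1 is the highest library for Fcgr1, Fcgr2b, Fcer1g, Tyrobp, Trem2 and Clec7a.

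Counted over the 9 genes, the groups did not overlap for 3 that were higher in simulated microgravity (Syk, Fcgr3 and Fcgr4) and for 1 that was lower (Clec7a), where 14.4% of all tested genes were apart upward and 12.9% downward. Without normal gravity replicate 1, 6 of the 9 were higher (Fcgr1, Fcgr3, Fcgr4, Tyrobp, Trem2 and Syk) and none lower, where 15.7% of 14809 tested genes passed upward and 15.1% downward. With the length trend also removed, which was chosen after seeing the data, 5 were higher, against 15.4% of all genes upward and 15.2% downward. Fcgr1 and Trem2 were among the smaller of these differences, at 1.17-fold and 1.18-fold, and Fcgr4 the largest at 1.93-fold. In that comparison 4 of the macrophage markers were also higher and none lower, with Lyz2 at 2.07, Cd68 at 0.58, Ptprc at 0.50 and Csf1r at 0.19 log2 units. Of the markers of other cell types S100a8 (2.76), Vwf (1.57), Pdgfrb (1.38) and Ass1 (1.12) were higher there and Lck (-0.64) lower, and Vwf, Pdgfrb and Ass1 were also higher with all 6 libraries, at adjusted p = 0.00886, 0.0396 and 0.0246. The part of these markers in the result was not tested. The 9 genes together took 0.192%, 0.120% and 0.118% of the counts of normal gravity replicates 1, 2 and 3 and 0.151% to 0.156% of those in simulated microgravity.

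**Figure D3:**
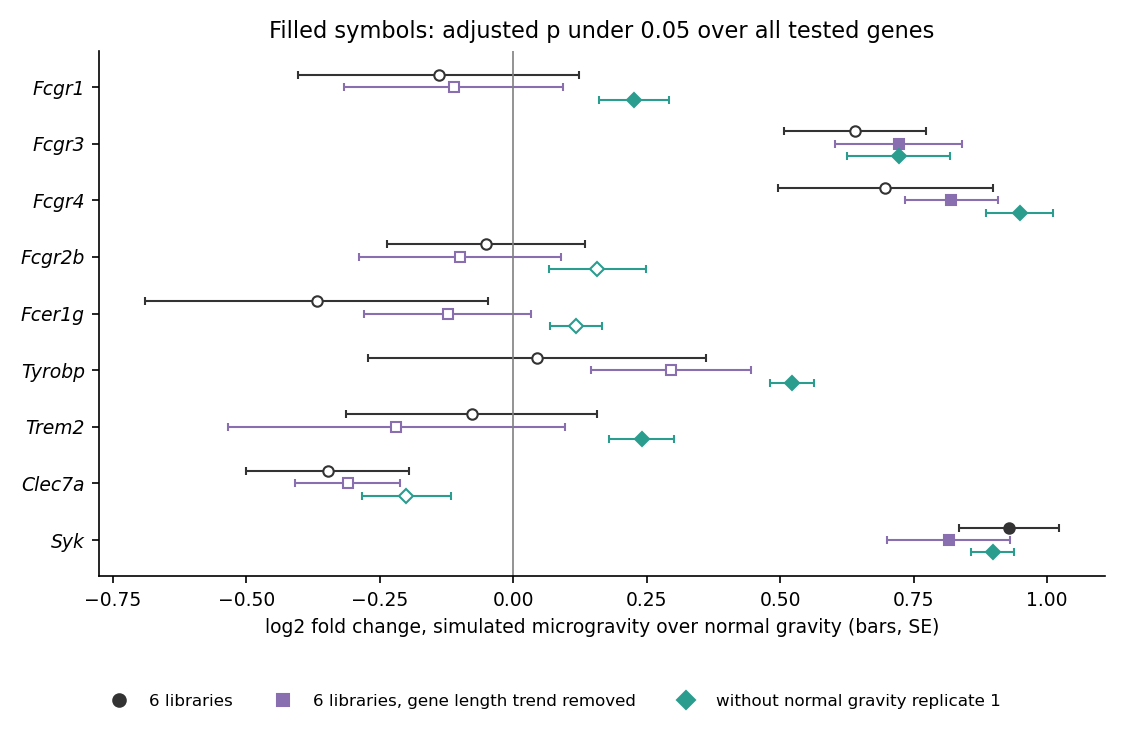
Log2 fold change of simulated microgravity over normal gravity with its SE for each gene, with all 6 libraries (black), with a gene length trend removed (purple) and without normal gravity replicate 1 (green), filled where the adjusted p over all tested genes is under 0.05. Syk is filled in all 3, Fcgr3 and Fcgr4 in the last 2, and Fcgr1, Tyrobp and Trem2 only without replicate 1.

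Divided by gene length, the adaptors were the most abundant transcripts of the set. At normal gravity Tyrobp stood at 484 ± 235 CPM per kilobase (SD, n = 3) and Fcer1g at 407 ± 200.3, ranges that overlapped through replicate 1 alone. Within normal gravity replicates 1, 2 and 3 Fcer1g stood at 0.844, 0.844 and 0.827 times Tyrobp. All normal gravity means and ranges in this comparison of levels include replicate 1. Far below came Fcgr2b at 67.2 ± 15.7, Fcgr3 at 52.6 ± 7.13, Fcgr4 at 47.1 ± 12.9, Trem2 at 42.1 ± 14.3, Fcgr1 at 34.2 ± 13.2 and Syk at 32.1 ± 1.31 CPM per kilobase, each overlapping the next, and then Clec7a at 11.2 ± 1.89. In simulated microgravity Tyrobp (499 ± 11.6) and Fcer1g (315 ± 13.5) did not overlap. Fcgr3 (82.1 ± 2.03) and Fcgr4 (76.3 ± 3.83) overlapped each other and stood above Fcgr2b (64.9 ± 6.28) and Syk (61.1 ± 1.605), which overlapped each other, followed by Trem2 (39.9 ± 2.53), Fcgr1 (31.1 ± 1.72) and Clec7a (8.84 ± 0.42). With the longest principal transcript as the length, a choice made after seeing the data, Trem2 ranked just below the adaptors in both groups, at 185 ± 63.0 and 175 ± 11.1 CPM per kilobase. Clec7a then stood at 36.2 ± 6.10 at normal gravity (rank 7) and at 28.5 ± 1.36 in simulated microgravity (rank 9).

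Ratios within a library put genes of 1 culture side by side, and several differed between the groups by more than the replicates did. The sum of the activating receptors Fcgr1, Fcgr3 and Fcgr4 per kilobase was 1.99, 1.97 and 2.02 times that of inhibitory Fcgr2b at normal gravity and 2.63, 3.26 and 2.93 times in simulated microgravity. Replicate 1 did not stand apart in this ratio, and the difference of the means was 0.56 log2 units with and without it. Fcer1g over Tyrobp was 0.844, 0.844 and 0.827 at normal gravity and 0.600, 0.631 and 0.662 in simulated microgravity. Here too replicate 1 matched its group, and the difference was -0.41 log2 units with and without it. The activating receptors and Clec7a summed over Fcer1g gave 0.287, 0.453 and 0.415 at normal gravity and 0.635, 0.646 and 0.609 in simulated microgravity, a difference of 0.74 log2 units with replicate 1 and 0.54 without. Trem2 over Tyrobp overlapped between the groups, at 0.0776, 0.0982 and 0.0960 against 0.0734, 0.0812 and 0.0851. This overlap came from replicate 1 alone, and the difference was -0.18 log2 units with replicate 1 and -0.28 without. These ratios are descriptions with no test.

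**Figure D4:**
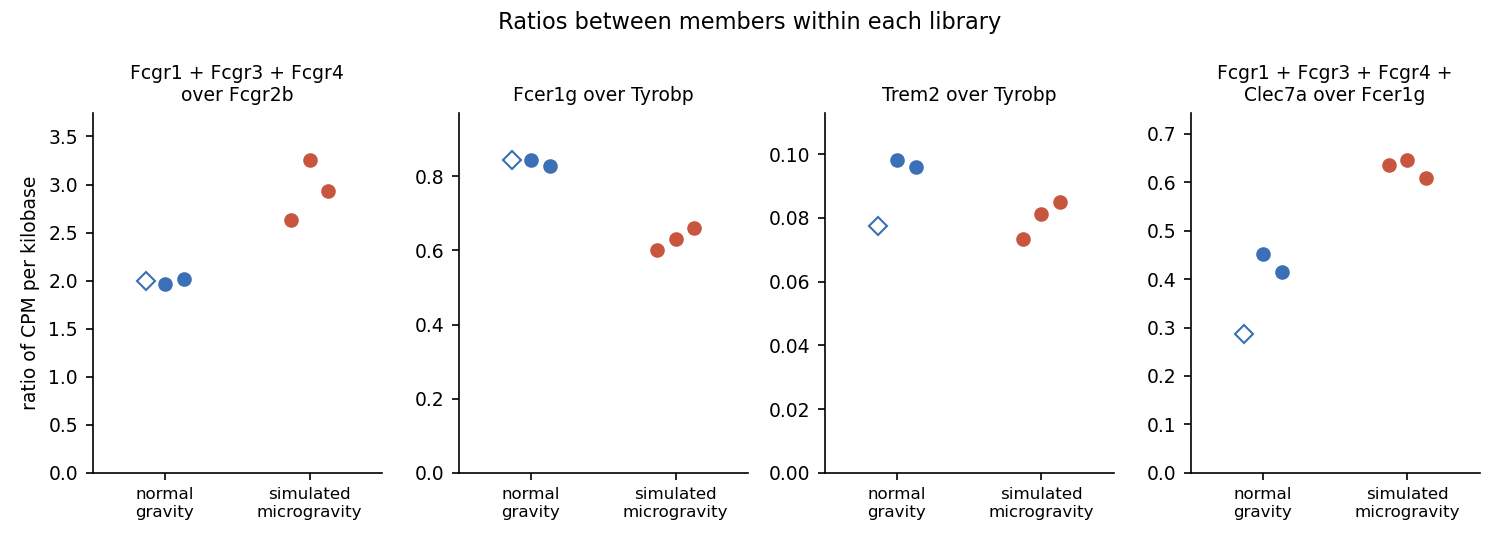
Ratio of CPM per kilobase between genes in each library, at normal gravity (blue, open diamond for replicate 1) and in simulated microgravity (red). Activating over inhibitory Fc receptors is 1.97 to 2.02 in the blue libraries and 2.63 to 3.26 in the red ones, Fcer1g over Tyrobp is lower in all 3 simulated microgravity libraries, and Trem2 over Tyrobp overlaps through replicate 1 alone.

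Kinases and adaptors that carry the signal from ITAMs showed no gene past the threshold with edgeR on all 6 libraries. Of 30 genes 29 were tested, and edgeR and limma-voom called none of them. With the length trend removed edgeR called 2 higher and 0 lower, against 3.03% and 1.77% of all genes. DESeq2 called 4 higher and none lower, and it called 4.92% of all genes higher and 3.56% lower. With no adjustment edgeR's p was under 0.05 for 7 higher and 1 lower, against 8.55% and 7.48% of all genes. The median log2 fold change was 0.17, against -0.02 for all tested genes. Without normal gravity replicate 1, 12 were higher and 5 lower (median 0.16), against 15.7% and 15.1% of all genes (median 0.007). Rac2, the GTPase gene with the highest level of the list, stood at 1223 ± 179 and 947 ± 39.9 CPM (log2 fold change -0.37, adjusted p = 0.239). Of the Src family kinases that phosphorylate ITAMs, named after their values were seen, Fgr stood at 34.6, 18.8 and 20.5 CPM in the normal gravity libraries and at 50.4, 47.7 and 50.05 CPM in the others (1.00, adjusted p = 0.115), and Lyn stood at 94.1 ± 2.34 and 112 ± 1.56 CPM (0.25, adjusted p = 0.263). Tec, a kinase gene of the Btk family, stood at 29.5 ± 1.59 and 45.1 ± 2.77 CPM (0.61, adjusted p = 0.0590), also named after its value was seen. All 4 of these named genes passed in the edgeR fit without normal gravity replicate 1. Rac2, Fgr, Lyn and Tec stood there at -0.24, 1.33, 0.27 and 0.57 log2 units (adjusted p = 0.0102, 0.000220, 0.00773 and 0.00333).

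Among 16 phosphatases, ubiquitin ligases and adaptors grouped here as dampers of ITAM signals, edgeR and limma-voom called none and DESeq2 called 1 higher. The list includes Ptprc, also a macrophage marker above, and Ptpn11, and whether each gene damps these signals here was not tested. With the length trend removed edgeR called 1 higher and 0 lower, against 3.03% and 1.77% of all genes. With no adjustment edgeR's p was under 0.05 for 2 higher and 2 lower (median -0.02). Over all genes DESeq2 called 4.92% higher and 3.56% lower, and the unadjusted p was under 0.05 for 8.55% and 7.48%. Without normal gravity replicate 1, 4 were higher and 3 lower, against 15.7% and 15.1% of all genes. Ptpn6, which encodes the phosphatase SHP-1 and had the highest level of the list, stood at 531, 443 and 383 CPM at normal gravity and at 337, 336 and 342 CPM in simulated microgravity (-0.42, adjusted p = 0.213). Its value without replicate 1 was -0.29 (adjusted p = 0.0205).

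Other receptors that pair with Fcer1g or Tyrobp had 15 tested genes of 20, with a median of 0.40, of which edgeR called 1 higher, none lower and 14 neither, against 1.16% of all genes higher and 0.365% lower. DESeq2 and edgeR with the length trend removed each called 3 higher, limma-voom 1, and none of these called any lower. The unadjusted edgeR p was under 0.05 for 5 higher and 0 lower. Shares of all genes were 4.92% higher and 3.56% lower with DESeq2 and 3.03% and 1.77% with the trend removed. They were 1.28% and 0.338% with limma-voom and 8.55% and 7.48% for the unadjusted p. Cd200r4, an activating relative of the CD200 receptor, went from 64.6, 48.3 and 46.6 CPM to 132, 125 and 141 CPM, and so by 1.32 log2 units (SE 0.16, adjusted p = 0.0196). Clec4d, which encodes a lectin receptor for mycobacterial lipid and had the highest level, stood at 325, 161 and 151 CPM at normal gravity and at 353, 337 and 409 CPM in simulated microgravity (0.79, adjusted p = 0.290), and was higher without replicate 1 (1.23, adjusted p = 0.000545). Without that library 8 of the list were higher and 1 lower (median 0.42), against 15.7% and 15.1% of all genes (median 0.007). Klrk1 and Ncr1, receptors of natural killer cells, had 0 counts in all libraries.

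Of 16 tested inhibitory receptors with an ITIM, edgeR called 1 higher, none lower and 15 neither (median 0.23), against 1.16% of all genes higher and 0.365% lower. It was 2 higher with limma-voom, 3 higher and 2 lower with DESeq2, and 1 higher and 1 lower with the length trend removed. The unadjusted edgeR p was under 0.05 for 4 higher and 2 lower. Shares of all genes were 1.28% higher and 0.338% lower with limma-voom and 4.92% and 3.56% with DESeq2. They were 3.03% and 1.77% with the trend removed and 8.55% and 7.48% for the unadjusted p. Ceacam1, which encodes an adhesion receptor with inhibitory tyrosine motifs, went from 27.2, 38.6 and 40.7 CPM to 108, 104 and 109.9 CPM, and so by 1.59 log2 units (SE 0.18, adjusted p = 0.0155). Sirpa, the receptor for CD47 and the most abundant of the list, stood at 298 ± 82.7 and 385 ± 8.32 CPM (0.37, adjusted p = 0.481). Its value without normal gravity replicate 1 was 0.16 (adjusted p = 0.0283). Without normal gravity replicate 1, 6 were higher and 2 lower (median 0.31), against 15.7% and 15.1% of all genes (median 0.007). Cd200r4 and Ceacam1 have close relatives in the mouse genome, and reads may have been split between them.

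Other genes grouped here as immunoglobulin receptors were mostly absent, with 8 of 11 at 0 counts in all libraries, among them Fcer1a, Ms4a2 and Fcer2a of the IgE receptors. Fcrl1 and Fcrls are in the list as Fc receptor-like genes, and whether they bind antibodies was not tested. Of the 3 tested ones edgeR and limma-voom called none. DESeq2 called 1 higher and 1 lower, as many as had an unadjusted edgeR p under 0.05. Shares of all genes were 4.92% higher and 3.56% lower with DESeq2 and 8.55% and 7.48% for the unadjusted p. Fcgrt, the neonatal Fc receptor gene that recycles IgG, stood at 130.5, 52.2 and 54.0 CPM at normal gravity and at 86.2, 91.7 and 102 CPM in simulated microgravity (0.24, adjusted p = 0.816), and was higher without replicate 1 (0.82, adjusted p = 0.00157). The other tested genes were named after their values were seen. Fcrl1 stood at 35.0 ± 2.54 and 22.9 ± 1.26 CPM (-0.61, adjusted p = 0.0647), and Trim21, a cytosolic antibody receptor gene, at 7.56 ± 0.65 and 11.1 ± 1.07 CPM (0.56, adjusted p = 0.144). Without replicate 1 Fcrl1 and Trim21 stood at -0.67 and 0.63 (adjusted p = 0.00203 and 0.0127), where 15.7% of all genes were higher and 15.1% lower.

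TREM2 ligands, sheddases and genes of lipid-associated phagocytes had 19 tested genes of 21, of which edgeR and limma-voom each called 2 lower and none higher (median 0.05), against 0.365% and 0.338% of all genes lower. Both DESeq2 and edgeR with the length trend removed called 5 higher and 5 lower. The unadjusted edgeR p was under 0.05 for 6 higher and 5 lower. Shares of all genes were 4.92% higher and 3.56% lower with DESeq2 and 3.03% and 1.77% with the trend removed. For the unadjusted p they were 8.55% and 7.48%. Cst7, which encodes cystatin F, an inhibitor of lysosomal proteases, went from 15.5, 11.6 and 9.66 CPM to 4.50, 3.37 and 3.603 CPM, which is -1.67 log2 units (SE 0.23, adjusted p = 0.0319). Lpl, the lipoprotein lipase gene, went from 415, 619 and 697 CPM to 238, 229 and 201 CPM (-1.37, SE 0.21, adjusted p = 0.0381). Gpnmb, a glycoprotein gene and the most abundant of the list, stood at 3073 ± 376 and 4998 ± 308 CPM (0.70, adjusted p = 0.0590). Its value without normal gravity replicate 1 was 0.62 (adjusted p = 0.00195). Without normal gravity replicate 1, 9 were higher and 6 lower (median 0.42), against 15.7% and 15.1% of all genes (median 0.007). All 4 calls in these lists, those of Cd200r4, Ceacam1, Cst7 and Lpl, were lost when any 1 library other than normal gravity replicate 1 was left out. Shares over all genes in those fits are not given here, so the loss cannot be read as particular to these genes.

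**Figure D5:**
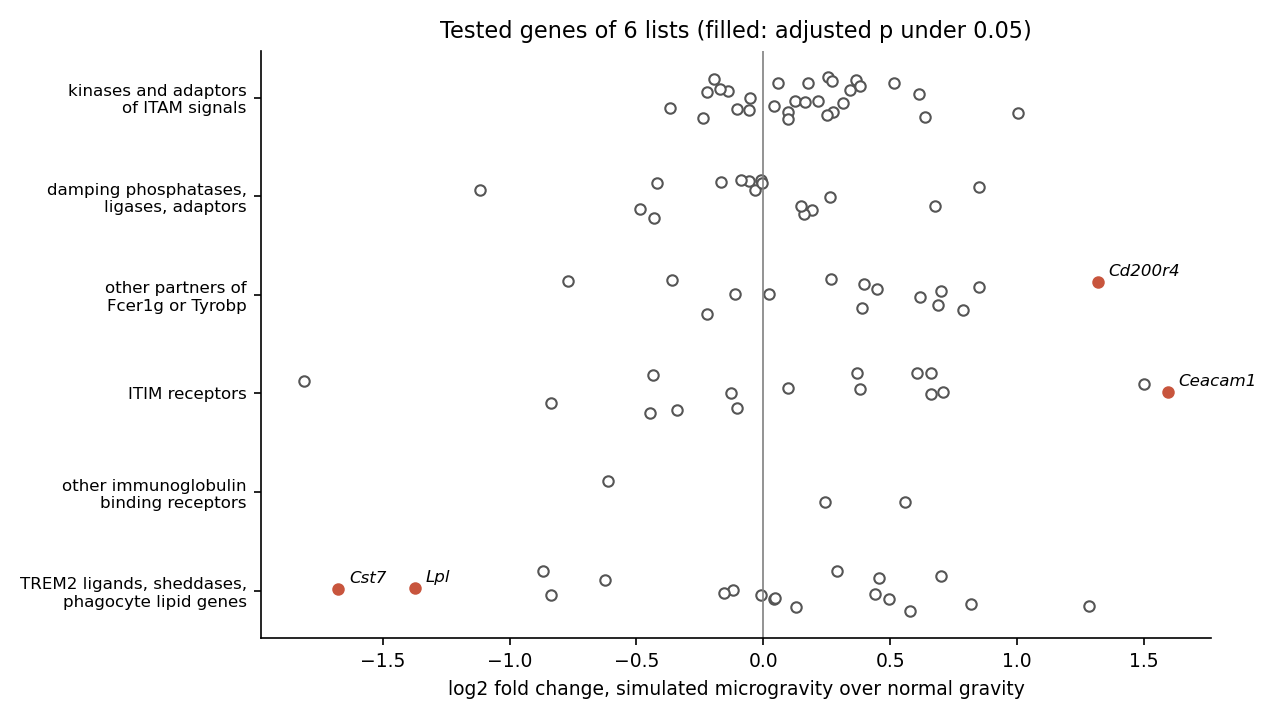
Log2 fold change of simulated microgravity over normal gravity for the tested genes of the 6 lists, each point a gene, filled and named where the adjusted p over all tested genes is under 0.05. Ceacam1 (1.59) and Cd200r4 (1.32) are filled to the right of 0, and Cst7 (-1.67) and Lpl (-1.37) to the left.

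The 5 genes whose log2 CPM over the 6 libraries correlated best with Syk, out of 9630 compared, were Cast, Thbs3, Sh3bp5, Sgms2 and Abcc5, with Pearson r from 0.9991 to 0.9999. Cast, which encodes the calpain inhibitor calpastatin, stood at 133 ± 8.09 and 306 ± 11.0 CPM. Each r is a description over 6 libraries in 2 groups and carries no test.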

How the data were processed

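Per the submitters' processing notes, the reads went through fastp 2.0 and HISAT2 2.1.0. Which program counted them, whether it used strand, how it treated reads with several matches, and with which build and annotation: these are not given in the sources used here. Deposited counts are whole numbers for each gene in 6 libraries, with no normalization visible in the values. Of 53619 genes shared with GENCODE M21, 97.0% had the same start and end, so GRCm38 coordinates are given. Of the table's 53801 lines, 1 holds no gene. Without molecular identifiers, counts are not independent molecules.

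Tests used edgeR 4.0.16 in R 4.3.3, with filterByExpr (14509 genes kept), TMM factors and two-sided quasi-likelihood tests. P-values were adjusted over every tested gene by the Benjamini-Hochberg method, with 0.05 as the limit, and the SE is the log2 fold change over the root of F. Alternatives were DESeq2 1.42.0, limma-voom (limma 3.58.1), library-size scaling, no filter, a replicate block, a gene length trend (lowess, span 0.3) put into the offsets, and leaving out each library. Procedures were tested on simulated data. The 9 genes, the 6 lists (of 1 gene, Siglecf, no row was found) and the markers were chosen with earlier results of these data known. Of each list, the genes named are the 2 with the lowest p in each direction among those past the threshold and the 1 with the highest level, and any other is said to have been named after its values were seen or is given as background on the list. Promoter windows are from RefSeq (GRCm38.p6), with an entry for 8 of the 9 genes and none for Tyrobp. Itgam has a pair of overlapping rows, of which the first was used.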

Additional observations from a re-analysis of the deposited data

How the results depend on the processing

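Of the 9 genes 1 passed in the comparison with 6 libraries. The number was 3 with DESeq2 and 3 with the gene length trend removed (Syk, Fcgr3 and Fcgr4 in both), 5 with that trend removed and normal gravity replicate 1 left out (chosen after seeing the data), 0 with the replicate block and 0 to 6 when 1 library was left out. In the other lists 4 genes passed, against 25, 18, 56, 0 and 0 to 59 in the same order. Over all tested genes calls rose as well, from 1.16% higher and 0.365% lower to 4.92% and 3.56% with DESeq2, 3.03% and 1.77% with the trend removed, and 15.4% and 15.2% with that replicate also left out. Such shares are not given here for the fits that left out any other library. The log2 fold change of Syk was above 0 in all 13 alternatives (0.82 to 0.95) and passed in 7. It stood at 0.93 with the replicate block (adjusted p = 0.192) and at 0.90 to 0.95 when 1 library was left out. Replicate numbers are shared by both groups in the titles, and deviations of same-numbered libraries correlated at -0.07, 0.03 and -0.09. With 3 libraries in each group these values cannot decide whether same-numbered libraries were paired. Over all genes the block left 0 calls. Fcgr3 and Fcgr4 were above 0 and Clec7a below 0 in all 13. Signs changed for Fcgr1 (-0.30 to 0.23), Fcgr2b (-0.17 to 0.16), Fcer1g (-0.56 to 0.12), Trem2 (-0.22 to 0.24) and Tyrobp (-0.15 to 0.52) when 1 library was left out, and with the length trend removed and normal gravity replicate 1 left out the first 4 stood at 0.17, 0.14, 0.083 and 0.27. The causes were not tested. Without length division the order of levels moved, with Syk at rank 5 in place of rank 8 at normal gravity, and at rank 9 with principal transcript lengths.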
